A study of Mus musculus with 128 samples.

Results

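The 38 genes described here carry glucose, lactate and pyruvate into the cell, split glucose to pyruvate, bring pyruvate into the mitochondrion and oxidise it, or run the pentose phosphate pathway. They were chosen by gene symbol from these pathways, and all 38 were found among the 41300 genes of the deposited table. Glucose transport is represented by Slc2a1 and Slc2a3, and monocarboxylate transport by Slc16a1 and Slc16a7. Upper glycolysis is represented by Hk1, Hk2, Gpi1, Pfkl, Pfkp, Pfkm, Aldoa and Aldoc, and lower glycolysis by Tpi1, Gapdh, Pgk1, Pgam1, Eno1 and Pkm. Ldha and Ldhb encode lactate dehydrogenase subunits, Mpc1 and Mpc2 the mitochondrial pyruvate carrier, Pdha1 and Pdhb subunits of pyruvate dehydrogenase, and Pdk1, Pdk2 and Pdk3 its kinases. Cs, Idh1, Idh2 and Ogdh stand for the citric acid cycle and for isocitrate oxidation, and G6pdx, Pgd, Pgls, Tkt, Taldo1, Rpia and Rpe for the pentose phosphate pathway.

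Polyadenylated RNA was sequenced from single C57BL/6 mouse eggs arrested at metaphase II (MII oocytes) and from single embryos with 2, 4 or 8 cells, taken 1.5, 2.5 and 3.5 days after fertilization. The design crossed 4 stages with 2 genotypes, and each of the 8 groups had 16 libraries, 1 oocyte or embryo per library. The groups labelled wildtype are m+/p- for Kdm4a, a histone demethylase gene, and the groups labelled Kdm4a knockout are m-/p-. Both kinds of oocyte were fertilized with Kdm4a knockout sperm, so the embryos of both groups lacked a paternal copy and differed in the maternal one. Embryos of both genotypes were collected together, at times set by the progress of the control embryos, so a lag in development and a change of transcription cannot be told apart. The labels name no mothers, so p-values measure the spread between single oocytes or embryos that may come from few females.

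One library, 8-cell knockout replicate 4, held 419 counts and was left out. The other 127 held 528377 to 4657857 counts, and a gene with no count in a library could have reached 0.644 to 5.68 CPM (a gene's counts scaled to a common library total) there, the level of 3 counts. Kdm4a had a median of 10.8 CPM in wildtype and 1.15 CPM in knockout oocytes, and of 1.59 and 1.08 CPM in 8-cell embryos, so at that stage its level separates the groups little. The library labelled 8-cell knockout replicate 7 stood apart. Its 10 oocyte markers summed to 3139 CPM against 29.3 to 148 CPM in the other 14 knockout libraries, and its 10 markers of 8-cell embryos to 13.96 against 158 to 413 CPM. MII knockout replicate 15 and 2-cell knockout replicate 13 had fewer genes with a count than the rest of their groups (11139 against 12634 to 14934, and 14236 against 15595 to 18269). MII knockout replicate 15 also stood apart in its markers, with 3028 against 12262 to 18049 CPM for those of oocytes and 65.3 against 198 to 414 CPM for the 8 of 2-cell embryos. Of 15 markers of cumulus and granulosa cells, 8 had a median of 0 CPM in each of the 8 groups (Amh, Cyp11a1, Foxl2, Fshr, Inha, Inhba, Lhcgr and Ptx3), and Cyp19a1 and Nr5a2 made up most of their sum.

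Glycolysis turns glucose into pyruvate in the cytosol, and lactate dehydrogenase interconverts pyruvate and lactate. The mitochondrial pyruvate carrier moves pyruvate across the inner mitochondrial membrane, pyruvate dehydrogenase converts it to acetyl-CoA, which citrate synthase takes into the citric acid cycle, and the pyruvate dehydrogenase kinases phosphorylate and inhibit that step. Glucose-6-phosphate dehydrogenase opens the pentose phosphate pathway, which supplies NADPH and ribose phosphate. The mouse oocyte and the early cleavage embryo are known to live mainly on pyruvate and lactate and to use little glucose.

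The transcripts of lactate dehydrogenase B, glucose-6-phosphate dehydrogenase, Mpc1 and Cs were abundant in 2-cell embryos, and those of most glycolytic members were low at every stage. Pdha1 and Mpc2 were also low in oocytes and 2-cell embryos, and Pdha1 had medians of 16.8 and 24.6 CPM there in wildtype. Levels of different genes are compared here as CPM per kb of the deposited gene length. In wildtype 2-cell embryos the median was 616 CPM per kb for Ldhb, 274 for G6pdx, 159 for Mpc1 and 104 for Cs. Of the members of upper and lower glycolysis Pgk1 had the highest level at that stage, 27.8 CPM per kb. Tpi1 had 16.1, Gapdh 12.3 and Hk2, a hexokinase, 0.743. Bpgm, a bisphosphoglycerate mutase gene outside the 38, was higher in CPM, here not divided by gene length. In knockout 2-cell libraries other than replicate 13 it had 448 to 858 CPM (median 675), where Pgk1 had a median of 84.4 CPM. In knockout oocytes other than replicate 15 Bpgm had 2693 to 4312 CPM (median 3135). By the 8-cell stage the order had changed. Mpc2 stood at 589.7 CPM per kb, Pdhb at 376, Mpc1 at 368 and Pdha1 at 111, while Ldhb stood at 3.19 and G6pdx at 3.05. The summed level of all 38 genes had a median of 1331 (1110.5 to 1456) CPM in wildtype oocytes (range in parentheses), 2927 (2029 to 3507) CPM in 2-cell, 1803 (1539 to 2262) CPM in 4-cell and 2575 (2251 to 3077) CPM in 8-cell embryos. CPM are shares of a library's counts, so more of a transcript per embryo and less of the other transcripts cannot be told apart.

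**Figure D1:**
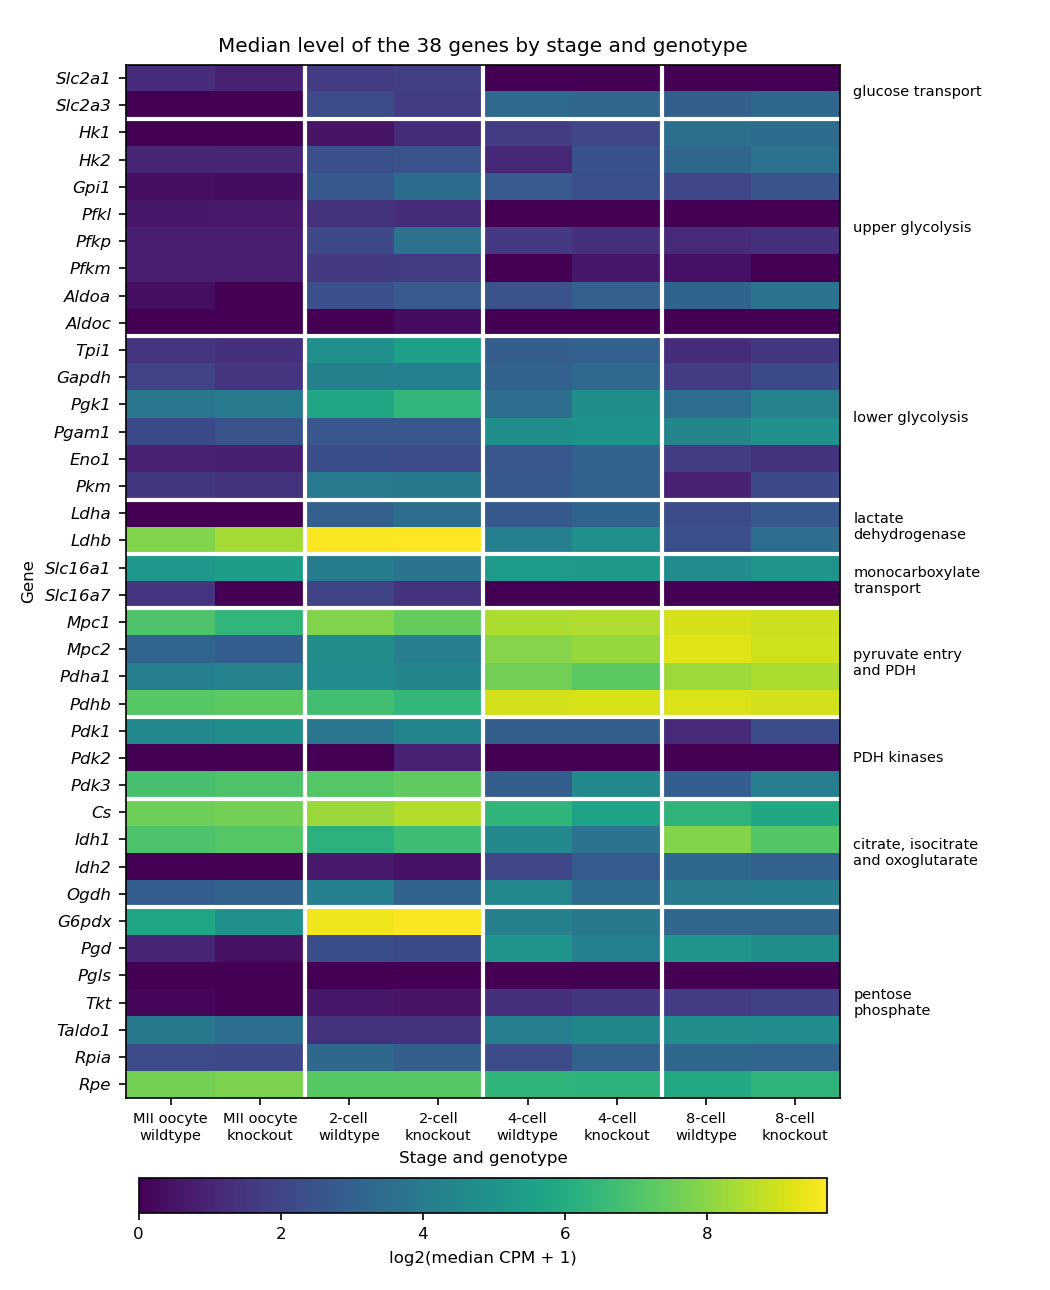
Median level of each of the 38 genes (rows, by role) in the 8 groups of stage and genotype (columns); colour is log2(median CPM + 1), with n = 16 libraries per group and 15 for 8-cell knockout. Ldhb and G6pdx are brightest in 2-cell embryos, the 4 genes of pyruvate entry and pyruvate dehydrogenase (PDH) in 4-cell and 8-cell embryos, and most rows of glycolysis stay dark.

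The glucose transporter genes were near the limit of counting. Slc2a1 (GLUT1) had group medians of 0 to 2.57 CPM and was at 0 in 15 of 16 wildtype 4-cell libraries. Slc2a3 (GLUT3) had a median of 0 CPM in wildtype oocytes and of 3.76, 9.06 and 6.75 CPM at the 3 later stages in wildtype, in order of stage. Of their summed CPM per kb in a library, Slc2a3 had a median share of 60.5% in wildtype 2-cell, 38.6% in knockout 2-cell and 100% in wildtype 4-cell embryos. Hk2 held a median of 100% (81.2% to 100%) of the hexokinase CPM per kb in wildtype oocytes, where both hexokinase genes were near the limit of counting. Hk1, the other hexokinase gene, held 54.7% (10.1% to 85.6%) in wildtype 8-cell embryos. Aldoc, Pdk2 and Pgls, which encode an aldolase, a pyruvate dehydrogenase kinase and 6-phosphogluconolactonase, had group medians of at most 0.934 CPM. Pfkl, Pfkm, Slc16a7 and Tkt, which encode phosphofructokinase subunits, a monocarboxylate transporter and transketolase, had group medians of at most 2.94 CPM.

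Ldhb dominated lactate dehydrogenase early and lost ground later. Its wildtype levels were 139.8 to 322 CPM (median 229.7) in oocytes, 295 to 1136 CPM (median 803) in 2-cell, 4.54 to 80.9 CPM (median 17.1) in 4-cell and 0.652 to 12.6 CPM (median 4.15) in 8-cell embryos. The ranges at the 2-cell and 4-cell stages did not overlap in either genotype. Ldha had no count in any of the 16 wildtype oocytes and 2.42 to 30.7 CPM (median 6.88) in wildtype 2-cell embryos. Of the summed CPM per kb of both genes, Ldhb had 99.4% (95.5% to 99.8%) in wildtype 2-cell embryos (median, lowest and highest library) and 64.9% (11.7% to 100%) in wildtype 8-cell embryos. Both genes were low at the 8-cell stage, and the shares varied widely between libraries there.

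**Figure D2:**
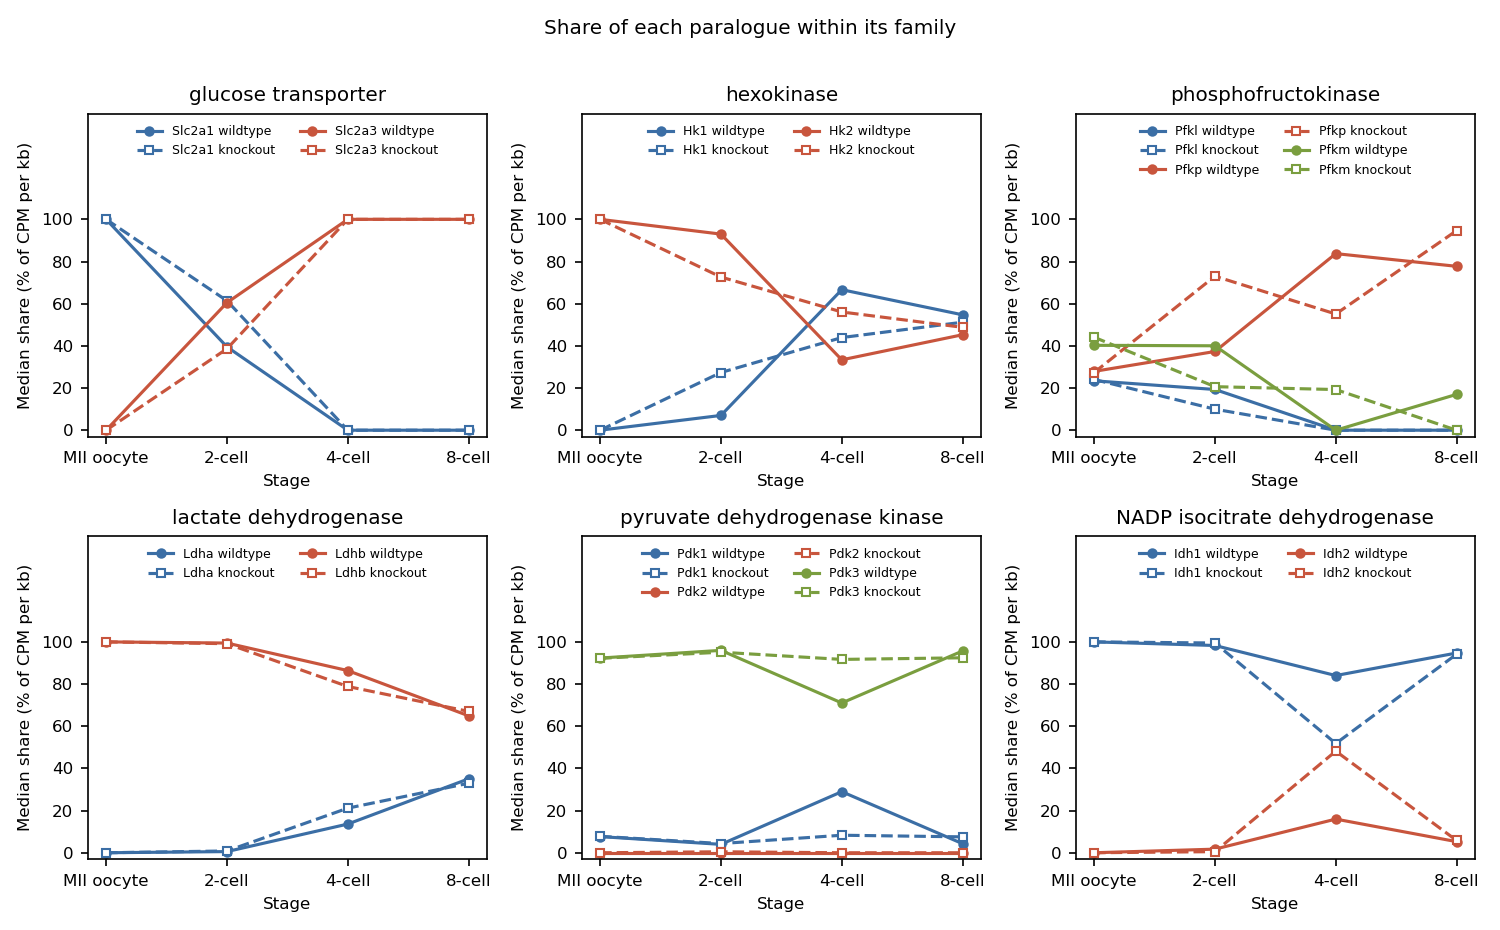
Median share of each paralogue in the summed CPM per kb of its family (y axis, percent) by stage (x axis), for wildtype (filled, solid) and knockout (open, dashed) libraries. Slc2a3 makes up the median glucose transporter level from the 4-cell stage on in both genotypes, and Ldhb falls from nearly all lactate dehydrogenase to 64.9% in wildtype 8-cell embryos; families with low counts, such as phosphofructokinase, have shares that vary widely between libraries.

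From the oocyte to the 2-cell stage most of the glycolytic transcripts that passed the low-count filter rose. A stage change was called in edgeR's quasi-likelihood test over 10240 genes where the adjusted p was under 0.05 and the log2 fold change was at least 1 in size. Of 27 of the 38 genes that passed the filter on low counts, 15 rose and 3 fell in wildtype, where 31.9% of all genes tested rose and 19.2% fell. In knockout 12 rose and 3 fell, against 30.6% and 18.6% of all genes. The median log2 fold change was 1.36 over the 27 and 0.21 over all genes in wildtype, and 0.72 and 0.19 in knockout. A member that was low at 1 stage passed the filter through the other, so these counts describe only the genes that passed. With library totals and no TMM factor the all-gene medians were 0.64 and 0.61, and 16 members rose and 1 fell in wildtype and 16 and 2 in knockout. In that setting 4193 of all genes rose and 1314 fell in wildtype, and 4056 and 1278 in knockout. All 4 upper glycolysis genes tested rose in both genotypes (Hk2, Gpi1, Pfkp and Aldoa), as did 5 of 6 of lower glycolysis (Tpi1, Gapdh, Pgk1, Eno1 and Pkm). Of these, all but Pgk1 did not pass the low-count filter within oocytes. They were thus tested through the 2-cell stage, where they were higher, which favours a rise.

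Tpi1, triosephosphate isomerase, went from 0.647 to 4.797 CPM (median 1.796) in wildtype oocytes to 14.5 to 91.5 CPM (median 28.5) in wildtype 2-cell embryos (log2 fold change 3.39, SE 0.24, edgeR adjusted p = 5.00e-21). Pkm, pyruvate kinase, went from 0.533 to 4.24 CPM (median 1.999) to 8.71 to 34.2 CPM (median 15.4) (log2 fold change 2.63, SE 0.24, edgeR adjusted p = 6.16e-16). For both genes the ranges did not overlap in either genotype. G6pdx, which commits glucose 6-phosphate to the pentose phosphate pathway, also rose. It went from 36.3 to 91.6 CPM (median 50.4) to 407 to 1064 CPM (median 726) in wildtype (log2 fold change 3.21, SE 0.14, edgeR adjusted p = 3.74e-31) and from 14.7 to 44.7 CPM (median 28.6) to 529 to 1221 CPM (median 806) in knockout (log2 fold change 4.39, SE 0.15, edgeR adjusted p = 3.24e-37), with no overlap in either genotype. Taldo1, transaldolase of the same pathway, fell by 2.87 in wildtype and 2.98 in knockout on the log2 scale. Slc16a1, the lactate and pyruvate transporter MCT1, fell from 23.9 to 55.8 CPM (median 34.8) to 4.99 to 35.4 CPM (median 16.4) in wildtype (log2 fold change -1.45, SE 0.19, edgeR adjusted p = 1.68e-10), with overlapping ranges. Idh1, the cytosolic NADP-dependent isocitrate dehydrogenase, fell in wildtype (log2 fold change -1.41, SE 0.17, edgeR adjusted p = 8.77e-12), and Pdhb fell in knockout (log2 fold change -1.10, SE 0.14, edgeR adjusted p = 7.09e-11). With no TMM factor the log2 fold changes of Slc16a1 and Idh1 in wildtype and of Pdhb in knockout were under the fold threshold, which ended these calls; Taldo1 kept its call in both genotypes and Slc16a1 in knockout. The remaining risers in wildtype were Ldha, Ldhb, Mpc2, Ogdh and Pgd, of which Ldha and Pgd also rose in knockout. Ldha and Pgd did not pass the low-count filter within oocytes, nor did Taldo1 within 2-cell embryos. For these genes this favours a change in the direction found.

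Between the 2-cell and 4-cell stages Mpc2 of the pyruvate carrier and the pyruvate dehydrogenase subunit genes Pdha1 and Pdhb rose. Lactate dehydrogenase B, the kinases Pdk1 and Pdk3, citrate synthase, Idh1 and several glycolytic enzymes fell. Of the 4 genes of pyruvate entry and pyruvate dehydrogenase 3 rose in each genotype, and Mpc1 did not pass the fold threshold. Other lactate and pyruvate dehydrogenase genes, listed beside the members, did not share this rise as a set. Of 7 such genes tested, 2 rose and 3 fell in wildtype, and 2 rose and 4 fell in knockout. Their summed level had a median of 602 CPM in wildtype 2-cell and 319 CPM in wildtype 4-cell embryos. Of 29 members tested, 8 rose and 12 fell in wildtype, where 30.5% and 43.9% of 10766 genes did, and 9 rose and 13 fell in knockout, against 32.6% and 42.4%. The median log2 fold change was -0.45 over the 29 and -0.48 over all genes in wildtype, and -0.20 and -0.34 in knockout. The all-gene medians moved with the scaling, to -0.76 and -0.69 with RLE size factors and to -0.20 and -0.02 with no TMM factor, where 8 members rose and 10 fell in wildtype and 10 and 10 in knockout. In that last setting 3703 of all genes rose and 4407 fell in wildtype, and 3942 and 4180 in knockout. The members' shares are close to the background, so the step is described by gene. Mpc2 went from 5.81 to 83.2 CPM (median 26.9) to 45.4 to 497 CPM (median 241) in wildtype and from 5.16 to 29.4 CPM (median 16.5) to 141 to 528 CPM (median 286) in knockout; the log2 fold change was 2.74 (SE 0.25, adjusted p = 9.50e-16) and 3.94 (SE 0.27, adjusted p = 1.65e-21). The ranges overlapped in wildtype through 1 low 4-cell library and did not overlap in knockout.

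Pdha1, the catalytic alpha subunit of pyruvate dehydrogenase, rose from 8.75 to 75.4 CPM (median 24.6) to 98.1 to 344 CPM (median 200.04) in wildtype (log2 fold change 2.34, SE 0.23, edgeR adjusted p = 1.20e-14). Pdhb, the beta subunit, rose from 66.1 to 258 CPM (median 108) to 334 to 734 CPM (median 527) (log2 fold change 1.84, SE 0.16, edgeR adjusted p = 2.76e-17). Neither gene's 2-cell and 4-cell ranges overlapped in either genotype. Dlat, Pdhx and Dld, which encode other components of the pyruvate dehydrogenase complex, had lower knockout medians in 8-cell than in 2-cell embryos. In 2-cell knockout libraries other than replicate 13 the medians were 80.4, 380 and 232 CPM, in that order. In 8-cell knockout libraries other than replicate 7 they were 10.1, 56.6 and 126 CPM. Mpc1 was already at 78.2 to 143 CPM (median 125) in wildtype oocytes and 175 to 354 CPM (median 234) in wildtype 2-cell embryos, and reached 214 to 515 CPM (median 366) and 432 to 686 CPM (median 540.4) in wildtype 4-cell and 8-cell embryos. Its step to the 4-cell stage was 0.29 (SE 0.13, adjusted p = 0.029) in wildtype, under the fold threshold. Pgd, 6-phosphogluconate dehydrogenase, rose from 0.565 to 11.6 CPM (median 4.09) to 20.5 to 90.9 CPM (median 32.6) in wildtype (log2 fold change 2.79, SE 0.29, edgeR adjusted p = 5.91e-14), without overlap. Pgam1, Slc16a1, Idh2 and Taldo1 rose in both genotypes, and Slc2a3 in knockout. Pgd, Idh2, Taldo1 and Slc2a3 did not pass the low-count filter within the 2-cell stage, so they were tested through the 4-cell stage, where they were higher.

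**Figure D3:**
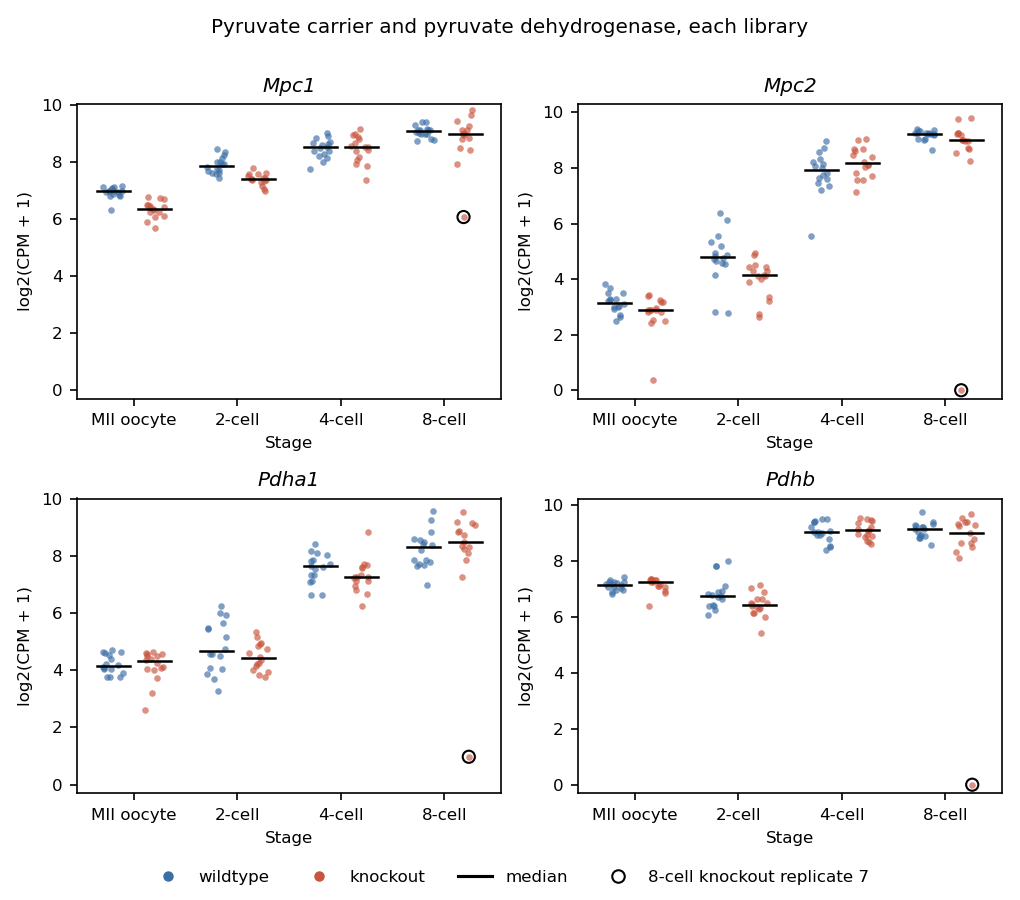
Level of Mpc1, Mpc2, Pdha1 and Pdhb in each library (y axis, log2(CPM + 1)) by stage (x axis) and genotype (colour); black bars are medians and the circled point is 8-cell knockout replicate 7. Mpc2, Pdha1 and Pdhb step up between the 2-cell and 4-cell stages, and the circled library lies far below the rest of its group for all 4 genes.

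G6pdx and Ldhb fell furthest at this step. G6pdx dropped to 0.475 to 59.3 CPM (median 17.8) in wildtype 4-cell embryos (log2 fold change -5.46, SE 0.29, edgeR adjusted p = 8.92e-27), and Ldhb changed by -5.38 (SE 0.34, adjusted p = 1.54e-23). Pdk3, a pyruvate dehydrogenase kinase, went from 79.8 to 179.9 CPM (median 141) to 0 to 29.7 CPM (median 6.72) in wildtype (log2 fold change -4.21, SE 0.39, edgeR adjusted p = 9.12e-16) and from 108 to 230.3 CPM (median 158) to 5.84 to 124 CPM (median 23.2) in knockout (log2 fold change -2.51, SE 0.35, edgeR adjusted p = 2.33e-09). The wildtype ranges did not overlap; the knockout ranges did. Pdk1, another kinase of the same enzyme, fell by 1.46 and 1.47 on the log2 scale in wildtype and knockout. Cs, citrate synthase, went from 244 to 503 CPM (median 303) to 41.2 to 118 CPM (median 79.5) in wildtype (log2 fold change -2.31, SE 0.15, edgeR adjusted p = 7.20e-23) and from 240.2 to 487 CPM (median 379.96) to 19.2 to 93.7 CPM (median 47.8) in knockout (log2 fold change -3.22, SE 0.15, edgeR adjusted p = 2.23e-29), with no overlap in either. Tpi1, Gapdh, Pgk1, Pkm, Idh1 and Rpe, ribulose-phosphate epimerase, also fell in both genotypes, Rpia, the ribose-phosphate isomerase gene, fell in wildtype, and Gpi1 and Pfkp fell in knockout. Within a stage Pfkp passed the low-count filter in 2-cell but not in 4-cell embryos.

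From the 4-cell to the 8-cell stage 3 of 29 members tested rose and 6 fell in wildtype, where 9.32% and 11.3% of 8822 genes did. In knockout 3 rose and 4 fell, against 8.09% and 3.88%. The median log2 fold change was -0.10 over the 29 and -0.05 over all genes in wildtype, and 0.09 and 0.07 in knockout. With no TMM factor 3 members rose and 7 fell in wildtype and 3 and 4 in knockout, while 647 and 1254 of all genes did in wildtype and 466 and 451 in knockout. The knockout background moved with 8-cell replicate 7: without it 570 of all genes rose and 589 fell, against 714 and 342 with it, and 4 members rose and 4 fell. Idh1 rose in both genotypes. It went from 0 to 86.8 CPM (median 22.5) to 92.5 to 329 CPM (median 235) in wildtype (log2 fold change 3.13, SE 0.51, edgeR adjusted p = 2.08e-06), without overlap, after a low at the 4-cell stage. In knockout it went from 0 to 55.9 CPM (median 11.8) to 1.44 to 362 CPM (median 136) (log2 fold change 3.43, SE 0.52, edgeR adjusted p = 3.24e-06), with overlap. Hk1 and Mpc2 rose in wildtype, and Hk2 and Pdha1 in knockout. Tpi1, Gapdh, Eno1 and Ldhb fell in both genotypes, and Pkm and Pdk1 in wildtype. Within a stage Tpi1, Gapdh, Eno1, Pkm and Pdk1 passed the low-count filter in 4-cell but not in 8-cell embryos, and Hk1 and Hk2 the reverse. These genes were thus tested through the stage where they were high, which favours a change in the direction found. The knockout call of Ldhb ended with RLE size factors (adjusted p = 0.094). Pkm changed by -2.63 (SE 0.45, adjusted p = 5.40e-06) on the log2 scale in wildtype.

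The comparison of genotypes asks what the maternal Kdm4a copy contributes to these transcripts. A gene was called at an adjusted p under 0.05 in edgeR's quasi-likelihood test within a stage, and log2 fold changes are knockout minus wildtype. Of the 38 genes, 30 passed the low-count filter at 1 or more stages, 15 passed at all 4 and 8 at none. At 1 or more stages 12 genes were called, and 5 of them at 2 stages. The 5 were Ldhb, Mpc1, Pdk3, Cs and Ogdh, each at 2 stages and in 1 direction. How many of all genes were called at 1 or more stages, or at 2, was not counted. The numbers 12 and 5 therefore only describe the members. Higher and lower calls stood side by side at every stage, and the counts within a stage are read against the share of all genes called there.

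Up to 250 bases before the transcription start of 4 of these 5 genes are shown, because they were called at 2 stages. Bases inside annotated exons were left out, and none is printed for Mpc1. The sequences are from RefSeq for GRCm38.p6 (mm10), read 5′ to 3′ on the strand of the gene, and capitals mark CCAAT boxes (CCAAT or its reverse complement) and GC boxes (GGGCGG or its reverse complement).
Ldhb, chr6:142507958-142508207, minus strand: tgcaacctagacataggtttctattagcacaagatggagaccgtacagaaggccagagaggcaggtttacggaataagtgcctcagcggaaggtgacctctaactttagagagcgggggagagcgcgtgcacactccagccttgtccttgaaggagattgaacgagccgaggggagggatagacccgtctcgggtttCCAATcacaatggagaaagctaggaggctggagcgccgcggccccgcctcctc
Pdk3, chrX:93832202-93832400, minus strand: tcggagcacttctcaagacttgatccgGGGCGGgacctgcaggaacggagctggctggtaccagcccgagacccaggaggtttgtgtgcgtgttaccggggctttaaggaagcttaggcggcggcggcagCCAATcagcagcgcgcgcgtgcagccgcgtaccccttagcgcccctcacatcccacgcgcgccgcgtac
Cs, chr10:128337477-128337726, plus strand: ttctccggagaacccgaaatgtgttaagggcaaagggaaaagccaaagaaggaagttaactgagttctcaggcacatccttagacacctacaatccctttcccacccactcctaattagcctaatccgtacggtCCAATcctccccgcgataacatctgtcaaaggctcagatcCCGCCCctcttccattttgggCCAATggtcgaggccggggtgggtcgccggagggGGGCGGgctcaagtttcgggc
Ogdh, chr11:6291409-6291632, plus strand: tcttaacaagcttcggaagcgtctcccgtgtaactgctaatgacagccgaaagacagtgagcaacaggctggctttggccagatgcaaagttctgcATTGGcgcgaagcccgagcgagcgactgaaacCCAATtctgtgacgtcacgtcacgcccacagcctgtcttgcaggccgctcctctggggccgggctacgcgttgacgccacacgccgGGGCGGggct
All 4 windows hold a CCAAT box, and those of Pdk3, Cs and Ogdh hold a GC box. The motifs were searched on both strands in the 250 bases before the start of the 36 members that have an entry and of 32817 RefSeq promoters. CCAAT was found in 44.44% of the members' windows and 33.83% of all windows, and GGGCGG in 72.22% and 32.72%. The E-box CACGTG was found in 11.11% and 6.02%. The hypoxia cores ACGTG, which every E-box of this form contains, and GCGTG were found in 30.56% against 16.57% and in 63.89% against 28.14%. The members' windows had a median GC content of 61.4% against 52.4% over all windows, and these shares are a description of letters.

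**Figure D4:**
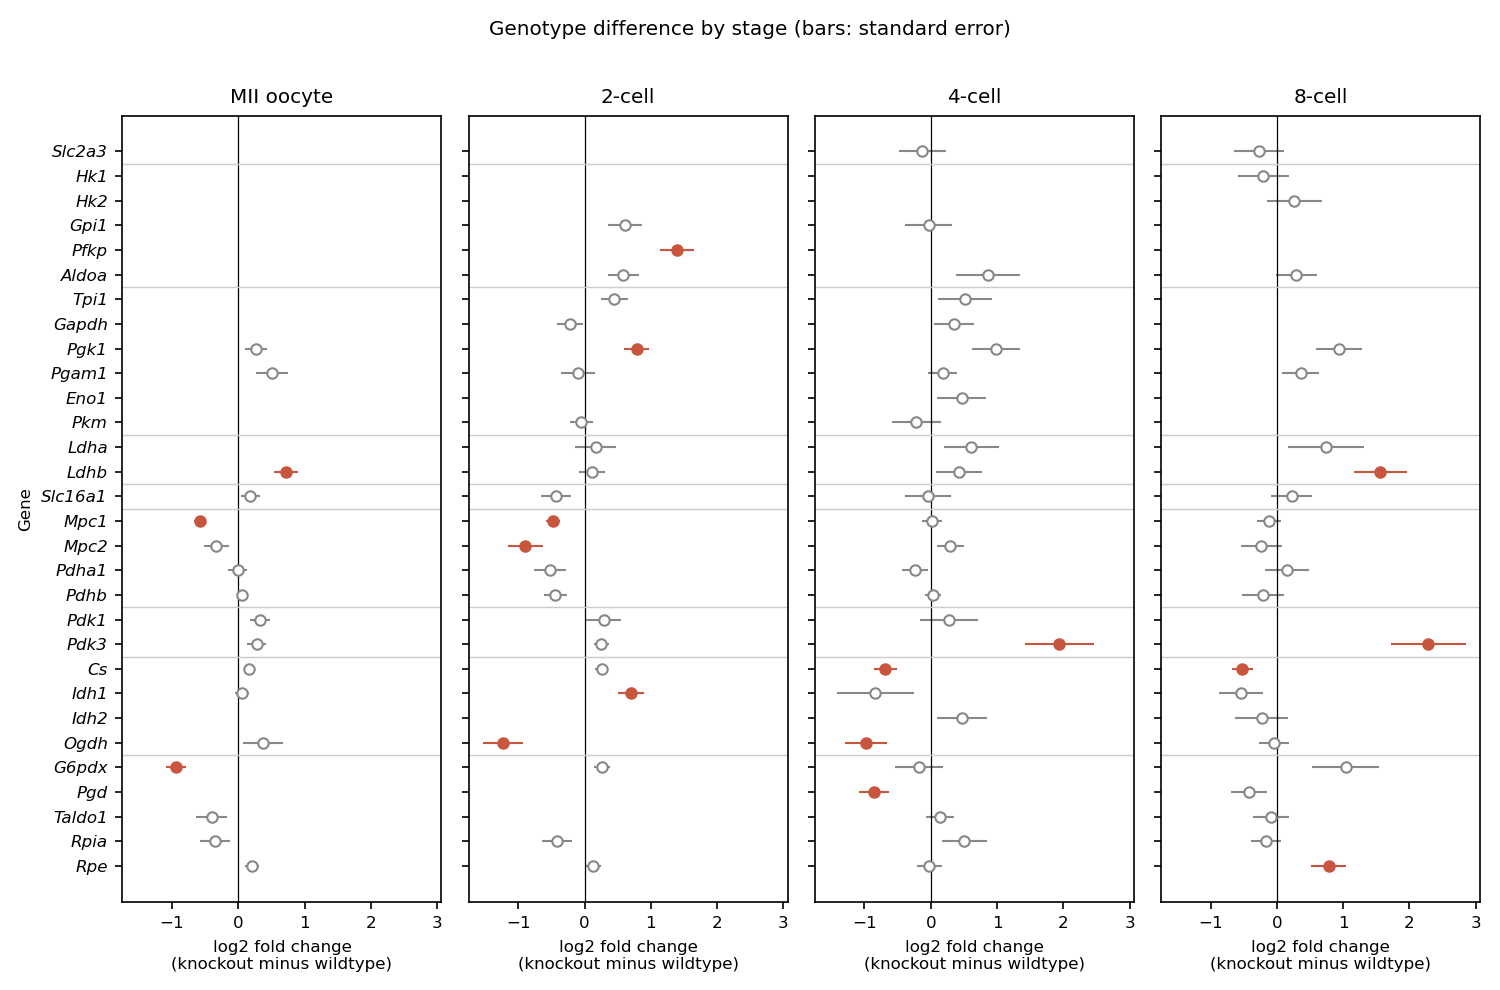
Log2 fold change of knockout over wildtype (x axis) with its standard error for the 30 genes tested at 1 or more stages (y axis, ordered by role), 1 panel per stage. Filled red points have an edgeR adjusted p under 0.05, open points do not, and genes without a point did not pass the filter at that stage; Mpc1 lies below 0 in oocytes and 2-cell embryos and near 0 later, and Pdk3 lies furthest above 0 in 4-cell and 8-cell embryos.

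In oocytes 1 of 17 members tested was higher in knockout and 2 were lower, where 5.27% and 6.69% of 7680 genes were. The median log2 fold change was 0.16 over the 17 and 0.02 over all genes. G6pdx (chromosome X, 74409483 to 74429194, mm10) had 36.3 to 91.6 CPM (median 50.4) in wildtype and 14.7 to 44.7 CPM (median 28.6) in knockout oocytes. It was lower than the wildtype median in 16 of 16 knockout oocytes (log2 fold change -0.94, SE 0.15, edgeR adjusted p = 3.82e-05). Mpc1 (chromosome 17, 8283762 to 8297661) had 78.2 to 143 CPM (median 125) in wildtype and 50.1 to 109 CPM (median 81.9) in knockout oocytes, and lay under the wildtype median in 16 of 16 (log2 fold change -0.57, SE 0.092, edgeR adjusted p = 4.11e-05). Ldhb (chromosome 6, 142490249 to 142507957) was the gene that was higher, with 139.8 to 322 CPM (median 229.7) in wildtype and 115 to 998 CPM (median 332) in knockout oocytes and 12 of 16 knockout libraries over the wildtype median (log2 fold change 0.72, SE 0.18, edgeR adjusted p = 0.00891). The ranges of the genotypes overlapped for all 3 genes. The size of the difference varied between 2 sets of 8 replicates: for G6pdx it was -0.47 (adjusted p = 0.0421) in replicates 1 to 8 alone and -1.44 (adjusted p = 0.000614) in replicates 9 to 16 alone on the log2 scale. For Mpc1 it was -0.42 and -0.73 in the same sets. The call of Ldhb ended in replicates 1 to 8 alone (adjusted p = 0.0667) and in replicates 9 to 16 alone (adjusted p = 0.235). Without knockout replicate 15 the same counts held, 1 higher and 2 lower, while the shares of all genes called were 9.8% and 9.79%. Among oocytes the wildtype libraries had a median sum of 11976 CPM (range 10468 to 13977) for the 10 oocyte markers, and the knockout libraries 15483 CPM (range 3028 to 18049). For the 8 markers of 2-cell embryos the sums were 211 CPM (range 153 to 329) and 311 CPM (range 65.3 to 414); their part in these results was not tested.

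Knockout 2-cell embryos had less of the pyruvate carrier and of Ogdh and more of 2 glycolytic transcripts and of Idh1. Of 23 members tested 3 were higher and 3 lower, where 7.25% and 10% of 8728 genes were, and the median log2 fold change was 0.13 over the 23 and -0.01 over all genes. Mpc1 had 175 to 354 CPM (median 234) in wildtype and 125 to 219.5 CPM (median 169) in knockout; all 16 knockout embryos lay under the wildtype median (log2 fold change -0.48, SE 0.10, edgeR adjusted p = 0.0012). Exons of RP23-430N15.2, a gene on the opposite strand, cover 12.7% of Mpc1's exon bases, and that gene had medians of 25.7 CPM in wildtype and 17.7 CPM in knockout oocytes and of 43.05 and 33.5 CPM in 2-cell embryos; its part in the Mpc1 results was not tested. Mpc2 (chromosome 1, 165461037 to 165481214), its partner in the carrier, had 5.81 to 83.2 CPM (median 26.9) and 5.16 to 29.4 CPM (median 16.5), with 14 of 16 under the wildtype median (log2 fold change -0.90, SE 0.26, edgeR adjusted p = 0.017). Pdha1 and Pdhb did not pass the test, at -0.52 (SE 0.24, adjusted p = 0.127) and -0.44 (SE 0.17, adjusted p = 0.0664). Ogdh (chromosome 11, 6291633 to 6356642), a subunit of the 2-oxoglutarate dehydrogenase complex, had 6.02 to 62.6 CPM (median 17.3) in wildtype and 2.52 to 26.2 CPM (median 7.48) in knockout embryos (log2 fold change -1.23, SE 0.30, edgeR adjusted p = 0.00457). The ranges of the genotypes overlapped for each of these genes.

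Pfkp (chromosome 13, 6579768 to 6648777), the platelet-type phosphofructokinase of the committed step of glycolysis, had 1.11 to 11.6 CPM (median 3.36) in wildtype and 3.75 to 18.8 CPM (median 11.6) in knockout 2-cell embryos. All 16 knockout embryos lay over the wildtype median (log2 fold change 1.39, SE 0.25, edgeR adjusted p = 0.000266). The low-count filter asked for about 4.95 CPM, which 6 of 16 wildtype and 15 of 16 knockout libraries reached, so Pfkp was tested because of the knockout group. Its share of phosphofructokinase CPM per kb was 37.3% (21.1% to 69.2%) in wildtype and 73.04% (38.2% to 83.7%) in knockout. Pitrm1, a gene on the opposite strand whose exons cover 17.4% of Pfkp's exon bases, had medians of 11.1 and 23.1 CPM in the same groups, and no source used here says whether counting used strand; its part in the result was not tested. Pgk1 (chromosome X, 106187100 to 106203699), phosphoglycerate kinase, had 10.3 to 105 CPM (median 50.8) and 39.8 to 117 CPM (median 82.3) (log2 fold change 0.79, SE 0.19, edgeR adjusted p = 0.00421). In 4-cell and 8-cell embryos Pgk1 was 0.99 (SE 0.36, adjusted p = 0.0565) and 0.93 (SE 0.35, adjusted p = 0.0763) on the log2 scale, neither past the threshold. Idh1 (chromosome 1, 65158616 to 65186479) had 20.7 to 134 CPM (median 74.4) and 58.4 to 193 CPM (median 102) (log2 fold change 0.70, SE 0.20, edgeR adjusted p = 0.013). The ranges of the genotypes overlapped for these 3 genes too.

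Transcripts of the stage itself also differed between 2-cell groups: 8 markers of 2-cell embryos summed to a median of 2723 (1236 to 4970.1) CPM in the wildtype group, against 1442 (782 to 3746) CPM in the knockout group. The 10 markers of 8-cell embryos summed to 92.5 (74.1 to 136) and 62.8 (48.1 to 81.4) CPM there. The part of these markers in the 2-cell results was not tested. Without knockout replicate 13 the counts were again 3 higher and 3 lower, here of 24 members tested, and the shares of all genes were 8.1% and 10.6%. The 2 sets of replicates differed. Replicates 1 to 8 alone gave 8 members called, 5 higher and 3 lower, of which 5 were among the 6, and in replicates 9 to 16 alone Pfkp was the 1 member called. The calls over all genes moved too, with 587 higher and 770 lower in replicates 1 to 8 and 37 and 103 in replicates 9 to 16. The log2 fold change in these sets was -1.40 and -0.40 for Mpc2, -1.72 and -0.67 for Ogdh, 1.07 and 0.33 for Idh1 and -0.61 and -0.36 for Mpc1. It was 1.36 and 1.41 for Pfkp and 0.78 and 0.78 for Pgk1, of similar size in both.

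In 4-cell embryos neither carrier gene passed the test, and the members called were Pdk3, Cs, Ogdh and Pgd. Of 27 members tested 1 was higher and 3 lower, where 8.97% and 7.46% of 7478 genes were, and the median log2 fold change was 0.14 over the 27 and -0.0046 over all genes. Mpc1 was 0.02 (SE 0.15, adjusted p = 0.937) and Mpc2 0.30 (SE 0.21, adjusted p = 0.35) on the log2 scale. Pdk3 (chromosome X, 93764607 to 93832201) had 0 to 29.7 CPM (median 6.72) in wildtype and 5.84 to 124 CPM (median 23.2) in knockout embryos, with 15 of 16 knockout embryos over the wildtype median (log2 fold change 1.94, SE 0.52, edgeR adjusted p = 0.00871). In 3 wildtype embryos it was listed at 0, and in none of the knockout embryos. The 10 oocyte markers summed to a median of 94.1 (28.96 to 239.97) CPM for wildtype 4-cell embryos, against 156 (96.9 to 857) CPM for knockout ones; their part in the result was not tested.

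Cs (chromosome 10, 128337734 to 128362479) had 41.2 to 118 CPM (median 79.5) in wildtype and 19.2 to 93.7 CPM (median 47.8) in knockout 4-cell embryos, with 15 of 16 under the wildtype median (log2 fold change -0.68, SE 0.18, edgeR adjusted p = 0.00681). Ogdh was again lower, at 0.591 to 39.9 CPM (median 21.2) in wildtype and 0.486 to 22.1 CPM (median 9.47) in knockout (log2 fold change -0.98, SE 0.32, edgeR adjusted p = 0.0304). This call ended without wildtype replicate 1 and without wildtype replicate 14, with an adjusted p of up to 0.0537. Pgd (chromosome 4, 149149991 to 149166707) had 20.5 to 90.9 CPM (median 32.6) and 5.24 to 39.4 CPM (median 17.4) (log2 fold change -0.86, SE 0.22, edgeR adjusted p = 0.00755). The ranges overlapped for all 4 genes called. In replicates 9 to 16 alone Cs and Pgd were called, and in replicates 1 to 8 alone no member was by edgeR (6 had an unadjusted p under 0.05). Over all genes 258 were higher and 154 lower in replicates 9 to 16, and 76 and 64 in replicates 1 to 8. On the log2 scale, with replicates 1 to 8 given before 9 to 16, Cs stood at -0.34 and -1.08, and Pgd -0.65 and -1.13. Idh1 was -0.84 (SE 0.58, adjusted p = 0.342) and Idh2 0.48 (SE 0.38, adjusted p = 0.42) on the log2 scale, so neither passed the test. Idh2 had a median of 15.96% (3.27% to 100%) of their summed CPM per kb in wildtype and 48.2% (15.1% to 100%) in knockout 4-cell embryos. These ranges overlapped widely.

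In 8-cell embryos 3 of 23 members tested were higher in knockout and 1 was lower, where 8.55% and 3.02% of 7219 genes were. The median log2 fold change was -0.05 over the 23 and 0.02 over all genes. Without knockout replicate 7, 2 were higher and 1 lower, against 6.94% and 5.42% of all genes. Pdk3 had 0 to 17.1 CPM (median 6.37) in wildtype and 2.796 to 145 CPM (median 16.8) in knockout, and 14 of 15 knockout embryos lay over the wildtype median (log2 fold change 2.29, SE 0.56, edgeR adjusted p = 0.0079). Replicate 7 was the highest at 145 CPM, and without it the log2 fold change was 1.29 (SE 0.41, adjusted p = 0.0335). Ldhb had 0.652 to 12.6 CPM (median 4.15) and 2.496 to 35.6 CPM (median 10.2) (log2 fold change 1.56, SE 0.40, edgeR adjusted p = 0.00936), and 1.09 (SE 0.32, adjusted p = 0.0233) without replicate 7, which held 35.6 CPM. For both genes fewer wildtype than knockout libraries reached the filter's 5.10 CPM (10 and 14 for Pdk3, 5 and 11 for Ldhb). The 10 oocyte markers summed to a median of 45.1 (18.1 to 78.1) CPM in wildtype 8-cell embryos. In knockout ones other than replicate 7 the sum was 55.8 (29.3 to 148) CPM. Their part in these results was not tested.

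Cs stayed lower, at 51.5 to 114 CPM (median 78.6) in wildtype and 31.8 to 97.3 CPM (median 54.1) in knockout 8-cell embryos, with 14 of 15 under the wildtype median (log2 fold change -0.52, SE 0.16, edgeR adjusted p = 0.0253). Its value without replicate 7 was -0.53 (SE 0.15, adjusted p = 0.0169). Rpe (chromosome 1, 66700831 to 66719805) had 31.2 to 95.8 CPM (median 57) and 44.7 to 218 CPM (median 78.04) (log2 fold change 0.78, SE 0.26, edgeR adjusted p = 0.0431), and 0.41 (SE 0.17, adjusted p = 0.103) without replicate 7, which ended the call. Ogdh, which had been lower in 2-cell and 4-cell knockout embryos, was -0.05 (SE 0.22, adjusted p = 0.915) on the log2 scale. Ranges overlapped for the 4 genes called. Neither replicates 1 to 8 nor replicates 9 to 16, each tested alone, gave a member call by edgeR at this stage (5 and 4 members had an unadjusted p under 0.05). Over all genes 1 was higher and 0 lower in replicates 1 to 8, and 77 and 35 in replicates 9 to 16.

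The genotype difference itself changed between stages for 8 members, by the interaction in a fit of both genotypes at 2 adjacent stages. At the step from oocyte to 2-cell embryo 1 of 27 members had a positive and 1 a negative interaction, against 1.93% and 2.06% of all genes. G6pdx went from -0.94 (SE 0.15, adjusted p = 3.82e-05) in oocytes to 0.27 (SE 0.12, adjusted p = 0.121) in 2-cell embryos, an interaction of 1.18 (SE 0.19, adjusted p = 5.94e-05). Ogdh went from 0.37 (SE 0.30, adjusted p = 0.471) to -1.23 (SE 0.30, adjusted p = 0.00457), an interaction of -1.61 (SE 0.44, adjusted p = 0.0234). G6pdx was thus lower in knockout before fertilization and did not pass the test in 2-cell embryos, and Ogdh showed the opposite order.

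At the step from 2-cell to 4-cell embryos 3 of 29 members had a positive and 2 a negative interaction, against 11.4% and 4.03% of all genes. The positive ones were Mpc1 with 0.51 (SE 0.18, adjusted p = 0.0415), Mpc2 with 1.19 (SE 0.34, adjusted p = 0.0119) and Pdk3 with 1.71 (SE 0.49, adjusted p = 0.0116). The call of Mpc1 ended with RLE size factors (adjusted p = 0.0924) and in DESeq2 (adjusted p = 0.0786). Both carrier subunits were lower in knockout at the 2-cell stage and did not pass the test at the 4-cell stage. The negative ones were Pfkp with -2.03 (SE 0.56, adjusted p = 0.00921) and Cs with -0.91 (SE 0.20, adjusted p = 0.00115). Pfkp reached the filter's level within a stage in 6 wildtype and 15 knockout 2-cell libraries, and in 3 and 1 at the 4-cell stage. It was thus tested because of the knockout 2-cell group, where it was high. The part of the overlapping gene Pitrm1 in this interaction was not tested. Cs was 0.26 (SE 0.095, adjusted p = 0.0554) in 2-cell embryos, above 0 without passing the test, before it was lower from the 4-cell stage on.

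At the step from 4-cell to 8-cell embryos 1 of 29 members had a positive and none a negative interaction, against 2.13% and 0.601% of all genes; 5 of the 29 had an unadjusted p under 0.05 in the same edgeR test. This background moved too, from 188 positive and 53 negative among all genes to 85 and 81 without 8-cell knockout replicate 7, to 401 and 83 with RLE size factors and to 130 and 35 with no TMM factor. The gene was Pdk1 (chromosome 2, 71873224 to 71903858), with 3.25 (SE 0.91, adjusted p = 0.0331). Pdk1 had 0 to 18 CPM (median 6.596) and 1.51 to 22.8 CPM (median 6.596) in wildtype and knockout 4-cell and 0 to 4.69 CPM (median 1.201) and 0 to 120.3 CPM (median 3.96) in 8-cell embryos. Replicate 7 alone held 120.3 CPM and the other 14 knockout embryos 0 to 8.27 CPM. Without the libraries in doubt the interaction was 1.04 with an adjusted p of 0.545, so it rests on that library.

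**Figure D5:**
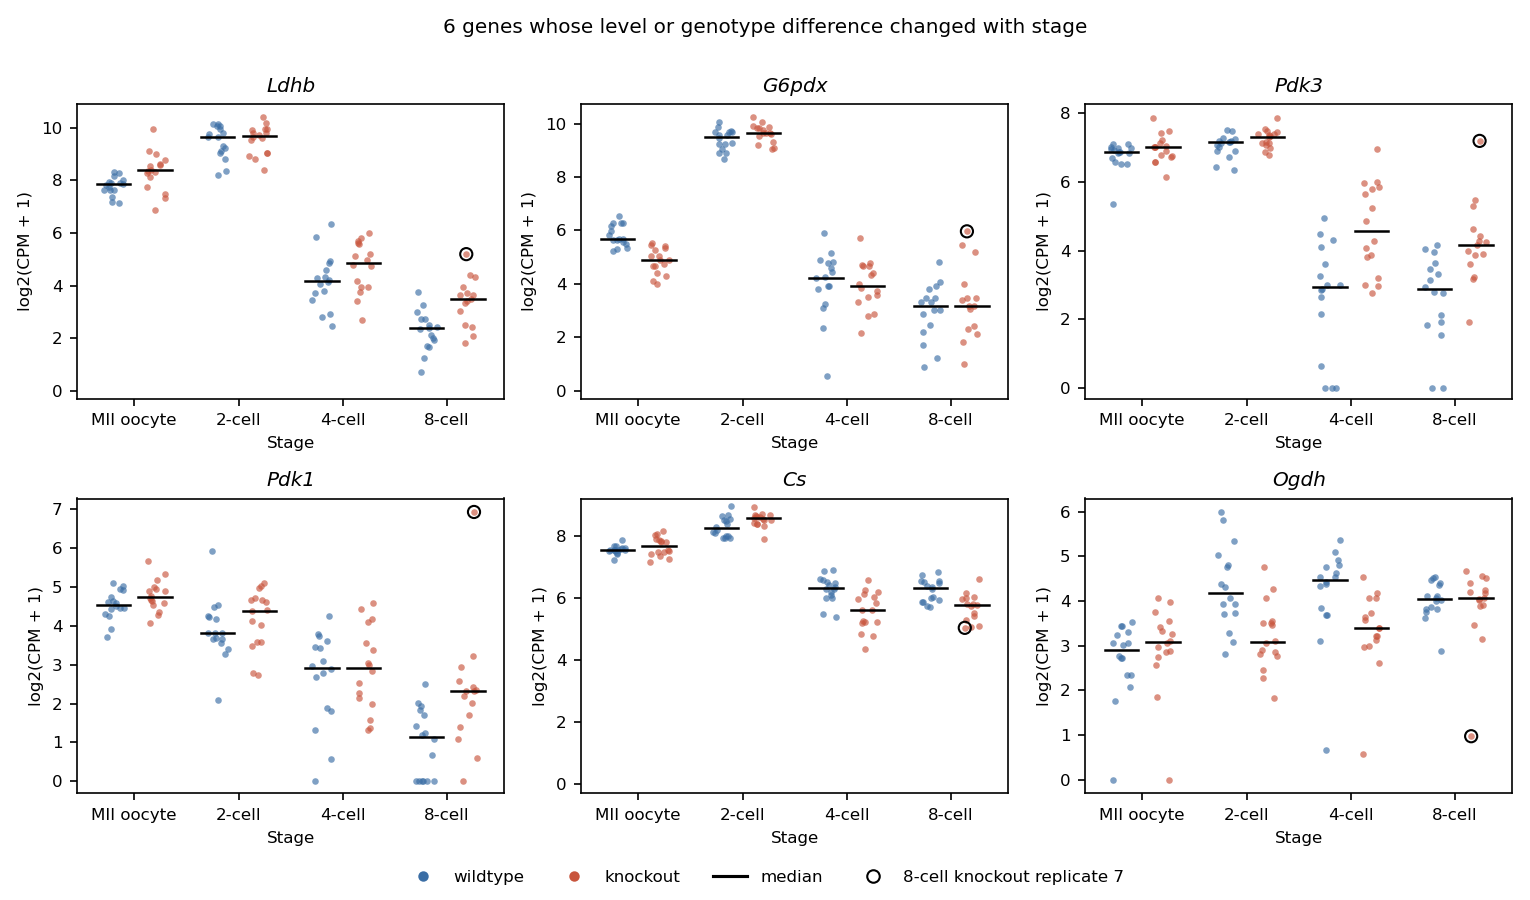
Level in each library (y axis, log2(CPM + 1)) by stage (x axis) and genotype (colour) for Ldhb, G6pdx, Pdk3, Pdk1, Cs and Ogdh; black bars are medians and the circled point is 8-cell knockout replicate 7. Ldhb, G6pdx and Pdk3 drop after the 2-cell stage, Pdk3 less so in knockout, and the circled library is the highest of its group for Ldhb, G6pdx, Pdk3 and Pdk1.

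Another 80 genes of the same pathways, listed beside the 38, gave a frame for these counts. Of those tested, 6 were higher and 1 lower of 38 in oocytes, 8 and 4 of 44 in 2-cell, 4 and 2 of 43 in 4-cell and 2 and 0 of 45 in 8-cell embryos, with the same backgrounds. Me1, the cytosolic malic enzyme, which turns malate into pyruvate and makes NADPH, was called higher at every stage. It was 0.72 (SE 0.11, adjusted p = 2.97e-05) in oocytes, 0.34 (SE 0.088, adjusted p = 0.00656) in 2-cell, 1.17 (SE 0.29, adjusted p = 0.00547) in 4-cell and 1.37 (SE 0.40, adjusted p = 0.0206) in 8-cell embryos, and 0.60 (SE 0.25, adjusted p = 0.114) at the last stage without replicate 7, which ended that call. Me2 and Pgam5 were the other genes with the smallest p among those higher in oocytes, and Suclg1 was lower. In 2-cell embryos Pdhx, a component of the pyruvate dehydrogenase complex, was 0.55 (SE 0.11, adjusted p = 0.000418), Galm 0.84 (SE 0.16, adjusted p = 0.000497) and Fh1, fumarase, 0.84 (SE 0.20, adjusted p = 0.00451). Slc16a6, Prps1 and Tktl1 were lower there, Prps1, a phosphoribosyl pyrophosphate synthetase, by 1.18 on the log2 scale (adjusted p = 0.0385). In 4-cell embryos Bsg, basigin, the chaperone of the monocarboxylate transporters, was 1.07 (SE 0.25, adjusted p = 0.00253) and Sucla2 0.98 (SE 0.26, adjusted p = 0.0081), while Tigar, which diverts sugar phosphates from glycolysis to the pentose phosphate pathway, was -0.77 (SE 0.16, adjusted p = 0.00108) and Acly -0.65 (SE 0.20, adjusted p = 0.0187). Bpgm, bisphosphoglycerate mutase, was called in 8-cell embryos at 3.53 (SE 0.74, adjusted p = 0.00311), but replicate 7 held 455 CPM against 5.11 to 33.1 CPM in the other knockout libraries, and without it the value was 1.05 (SE 0.32, adjusted p = 0.0264).

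The levels not given with a test complete the description of each gene; where a pair of values follows, wildtype stands first. Slc2a1 had 0 to 4.38 CPM (median 1.33) and 0 to 3.65 CPM (median 0.967) in oocytes, 0 to 6.06 CPM (median 2.24) and 1.57 to 5.68 CPM (median 2.57) in 2-cell embryos, 0 to 1.56 CPM (median 0) and 0 to 0.635 CPM (median 0) in 4-cell embryos, 0 to 0.647 CPM (median 0) and 0 to 1.13 CPM (median 0) in 8-cell embryos. Slc2a3 had 0 to 0.916 CPM (median 0) and 0 to 0.687 CPM (median 0) in oocytes, 0.484 to 16.4 CPM (median 3.76) and 1.01 to 6.51 CPM (median 2.35) in 2-cell embryos, 0.844 to 22.5 CPM (median 9.06) and 1.13 to 26.5 CPM (median 8.18) in 4-cell embryos, 0.7496 to 20.7 CPM (median 6.75) and 0 to 16.8 CPM (median 8.68) in 8-cell embryos. Both glucose transporters thus overlapped between genotypes at every stage. In upper glycolysis Aldoa, aldolase A, had 0 to 1.27 CPM (median 0.272) and 0 to 0.859 CPM (median 0) in oocytes, 2.06 to 9.08 CPM (median 4.17) and 2.74 to 10.3 CPM (median 5.81) in 2-cell embryos, 0 to 19.4 CPM (median 4.63) and 1.95 to 53.1 CPM (median 6.88) in 4-cell embryos, 2.27 to 19.4 CPM (median 7.705) and 1.26 to 17.95 CPM (median 12.1) in 8-cell embryos. Gpi1, glucose-6-phosphate isomerase, had 0 to 1.03 CPM (median 0.317) and 0 to 1.29 CPM (median 0.262) in oocytes, 2.76 to 13.2 CPM (median 5.41) and 1.85 to 18.4 CPM (median 9.63) in 2-cell embryos, 0.475 to 13.98 CPM (median 5.8) and 1.12 to 14.5 CPM (median 4.16) in 4-cell embryos, 1.04 to 7.19 CPM (median 3.19) and 0 to 10.7 CPM (median 4.52) in 8-cell embryos. Pfkm, the muscle-type phosphofructokinase subunit, had 0.293 to 2.304 CPM (median 0.763) and 0.215 to 2.07 CPM (median 0.762) in oocytes, 0.425 to 6.06 CPM (median 2.11) and 1.16 to 3.96 CPM (median 2.26) in 2-cell embryos, 0 to 3.39 CPM (median 0) and 0 to 2.55 CPM (median 0.5601) in 4-cell embryos, 0 to 0.652 CPM (median 0.401) and 0 to 1.92 CPM (median 0) in 8-cell embryos. Aldoa and Gpi1 left the oocyte range at the 2-cell stage in both genotypes, and Pfkm stayed near the limit of counting. Pfkp had 0 to 1.802 CPM (median 0.763) and 0.221 to 1.8 CPM (median 0.778) in oocytes, 0 to 7.04 CPM (median 2.04) and 0 to 5.497 CPM (median 1.46) in 4-cell embryos, 0 to 4.86 CPM (median 1.24) and 0 to 6.13 CPM (median 1.53) in 8-cell embryos, so its level in knockout 2-cell embryos was the highest group median of the gene.

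In lower glycolysis Pgk1 had 7.63 to 20.1 CPM (median 12.8) and 7.75 to 28.9 CPM (median 15.4) in oocytes, 0 to 33.9 CPM (median 10.4) and 3.86 to 52.05 CPM (median 27.5) in 4-cell embryos, 3.24 to 23.2 CPM (median 10.2) and 2.28 to 42.4 CPM (median 18.7) in 8-cell embryos. Pgam1, phosphoglycerate mutase, had 0.689 to 5.65 CPM (median 3.55) and 2.26 to 9.54 CPM (median 4.71) in oocytes, 2.98 to 11.95 CPM (median 5.17) and 1.91 to 10.4 CPM (median 5.16) in 2-cell embryos, 8.19 to 44.02 CPM (median 27.3) and 7.11 to 56.1 CPM (median 30.6) in 4-cell embryos, 9.57 to 44.96 CPM (median 20.4) and 0.481 to 54.3 CPM (median 29.1) in 8-cell embryos. Pgk1 had its highest median in knockout 2-cell embryos, while Pgam1 was higher in 4-cell and 8-cell than in 2-cell embryos. Slc16a1 had 8.34 to 60.7 CPM (median 40.9) in knockout oocytes, 3.67 to 19 CPM (median 12.2) in knockout 2-cell embryos, and 12.7 to 135 CPM (median 40.1) and 8.95 to 151 CPM (median 37.04) in 4-cell embryos, 5.997 to 56.3 CPM (median 24.5) and 0 to 57.9 CPM (median 31.4) in 8-cell embryos. Ldhb had 331 to 1369 CPM (median 829) in knockout 2-cell embryos and 5.47 to 63.01 CPM (median 28.3) in knockout 4-cell embryos. The Slc16a1 and Ldhb ranges of the genotypes overlapped at every stage. Mpc1 had 164 to 574 CPM (median 369.6) in knockout 4-cell embryos and 66.4 to 913 CPM (median 502) in knockout 8-cell embryos, and Mpc2 4.61 to 13.1 CPM (median 7.91) and 0.298 to 9.86 CPM (median 6.41) in oocytes, 397 to 678 CPM (median 604) and 0 to 899 CPM (median 515) in 8-cell embryos. Pdhb had 113 to 171 CPM (median 142) in wildtype oocytes, 83.7 to 164 CPM (median 152) in knockout oocytes, 42.1 to 141 CPM (median 85.8) in knockout 2-cell embryos, 396 to 747 CPM (median 549) in knockout 4-cell embryos, 387 to 867 CPM (median 569) in wildtype 8-cell embryos and 0 to 822 CPM (median 518) in knockout 8-cell embryos. The lowest 8-cell knockout values of these 3 genes are those of replicate 7.

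Of the kinases, Pdk3 had 40.3 to 137 CPM (median 116) and 69.6 to 232 CPM (median 128) in oocytes, and Pdk1 12.2 to 33.3 CPM (median 22.3) and 15.8 to 50.1 CPM (median 25.8) in oocytes, 3.28 to 59.1 CPM (median 13.1) and 5.71 to 33.4 CPM (median 19.9) in 2-cell embryos. Cs had 147 to 231 CPM (median 186) and 142 to 285 CPM (median 205) in oocytes, and Idh1 106 to 192 CPM (median 126) and 50.96 to 177 CPM (median 141) in oocytes. The oocyte ranges of the genotypes overlapped for these 4 genes. Ogdh had 0 to 10.6 CPM (median 6.48) and 0 to 15.7 CPM (median 7.43) in oocytes, 6.38 to 22.2 CPM (median 15.4) and 0.962 to 24.5 CPM (median 15.7) in 8-cell embryos. G6pdx had 3.44 to 51.7 CPM (median 14.1) in knockout 4-cell embryos, 0.854 to 27.4 CPM (median 8.08) in wildtype 8-cell embryos and 1.01 to 61.6 CPM (median 8.11) in knockout 8-cell embryos, and Pgd 0 to 3.19 CPM (median 1.09) in wildtype oocytes, 0 to 1.44 CPM (median 0.337) in knockout oocytes, 0 to 11.4 CPM (median 3.55) in knockout 2-cell embryos, 21.8 to 55.4 CPM (median 32.2) in wildtype 8-cell embryos and 0 to 52.6 CPM (median 27.5) in knockout 8-cell embryos. Rpe, ribulose-phosphate epimerase, had 127 to 259.9 CPM (median 203) and 167 to 369.8 CPM (median 221) in oocytes, 125 to 204 CPM (median 144) and 119.7 to 239 CPM (median 144) in 2-cell embryos, 38.5 to 163 CPM (median 81.3) and 42.6 to 175 CPM (median 76.7) in 4-cell embryos. Rpe was detected in all 127 libraries. Among the 7 pentose phosphate members it had the highest median per kb in 6 of the 8 groups, with G6pdx first in the 2-cell groups. The 8 members that passed the filter at no stage of the genotype comparison were Slc2a1, Pfkl, Pfkm, Aldoc, Slc16a7, Pdk2, Pgls and Tkt.

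Some of these levels rest on reads that other genes can share. Pseudogenes of at least 95% identity over 200 bases are annotated in GENCODE M21 for 12 members. There are 86 for Gapdh, 5 for Ldha, 4 for Pgk1, 3 for Eno1 and 2 for Mpc1, and their levels were not analysed here. Values that were not whole numbers, as arise when a read is split between places, made up 30.56% of the non-zero values of the whole table. Their share was higher for several of the genes called above: 81.1% for Mpc1, 69.05% for Pgk1, 60.6% for Pgam1, 53.5% for Pdha1, 51.2% for Rpe, 50.8% for Pdhb, 49.2% for Mpc2, 47.9% for Pfkp and 40.2% for G6pdx. It was 33.9% for Ldhb and 31.5% for Cs, near that of the table. The levels of Gapdh and of these genes from Mpc1 to G6pdx are therefore uncertain. Besides Pfkp and Mpc1, Pdha1 and Rpe overlap genes on the opposite strand, Map3k15 and Kansl1l, over 21.2% and 16.3% of their exon bases.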

How the data were processed

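Single oocytes and embryos were lysed in their tubes, and polyadenylated RNA was amplified with a SMART-Seq kit and made into Nextera XT libraries, per the labels' protocols. The submitters' processing notes name Trimmomatic 0.32, STAR 2.5.1a, featureCounts 1.5.1 and the mm10 build; strand and multi-mapping settings are not given in the sources used here. Per gene, the authors deposited estimated counts, not normalized, and 30.56% of the values above 0 were fractional (tolerance 1e-06), so all were rounded. The deposited table also gives each gene's length. Libraries under 100000 counts were left out (1 of 128).

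CPM and CPM per kb were computed from the library totals. Differences were tested with edgeR 4.0.16 (quasi-likelihood, robust, TMM, filterByExpr by group, R 4.3.3) on all genes, with Benjamini-Hochberg adjustment over all genes tested, a threshold of 0.05 and, for stage changes, a log2 fold change of at least 1 in size. The script was tested on simulated data. No 2 libraries of a group agreed within sampling noise (lowest chi-square per gene 5.25). Alternatives were DESeq2 1.42.0, RLE factors, no TMM factor, other filters, a replicate block, a depth covariate, each set of 8 replicates and leaving out libraries. Intervals from counts of 0 use 3 counts and cover counting error only, since PCR reads without molecular identifiers are not independent molecules. The members and lists were chosen with earlier results of these data known. Values in all groups are given for members called in a genotype or interaction test and for the highest per kb in each role; of the 80 other genes, up to 3 per direction and comparison are named by smallest p.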

Additional observations from a re-analysis of the deposited data

Results flagged for a closer look

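The genotype difference of 8 members differed between adjacent stages in edgeR's interaction test, and each is given here as the change of the log2 fold change (knockout minus wildtype) from the earlier to the later stage. Between the oocyte and the 2-cell embryo it was 1.18 (SE 0.19, adjusted p = 5.94e-05) for G6pdx and -1.61 (SE 0.44, adjusted p = 0.0234) for Ogdh. Between the 2-cell and 4-cell stages it was 1.19 (SE 0.34, adjusted p = 0.0119) for Mpc2, 0.51 (SE 0.18, adjusted p = 0.0415) for Mpc1 and 1.71 (SE 0.49, adjusted p = 0.0116) for Pdk3. It was -2.03 (SE 0.56, adjusted p = 0.00921) for Pfkp, which was tested because of the knockout 2-cell group, and -0.91 (SE 0.20, adjusted p = 0.00115) for Cs at the same step. Between the 4-cell and 8-cell stages it was 3.25 (SE 0.91, adjusted p = 0.0331) for Pdk1, a value that rests on 8-cell knockout replicate 7, with 1.04 (adjusted p = 0.545) without it.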

How the results depend on the processing

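No called value changed sign under any alternative run that tested the gene. Of the single-gene values that an alternative still tested, 103 of the genotype alternatives kept their side of the threshold and 30 lost it, 37 and 9 did so for interactions, and 508 and 12 for stage changes. A called gene that an alternative did not test is in neither count, so calls lost through the stricter filter are mostly missing from them. Leaving out 1 library at a time gave 3 to 3 members called in oocytes, 6 to 8 in 2-cell, 3 to 5 in 4-cell and 3 to 5 in 8-cell embryos; Ogdh lost its 4-cell call without wildtype replicate 1 or 14, and Rpe its 8-cell call in 16 of 31 such fits. Tested alone, replicates 9 to 16 gave 1 member called in 2-cell, 2 in 4-cell and 0 in 8-cell embryos, and replicates 1 to 8 gave 8 in 2-cell, 0 in 4-cell and 0 in 8-cell embryos, against 6, 4 and 4 with all; the 3 counts of 0 had 6 (4-cell), 5 and 4 (8-cell, replicates 1 to 8 and 9 to 16) members at an unadjusted p under 0.05 in edgeR. Calls over all genes moved as well. In 2-cell embryos 633 genes were higher and 873 lower with all libraries. In replicates 1 to 8 these counts were 587 and 770, and in replicates 9 to 16 they were 37 and 103. The cause of these differences was not tested. The stricter filter, which tests fewer genes, gave 11 instead of 18 wildtype and 8 instead of 15 knockout changes from oocyte to 2-cell, 5 instead of 9 and 4 instead of 7 from 4-cell to 8-cell, and 3 instead of 5 interactions from 2-cell to 4-cell. The 1 interaction from 4-cell to 8-cell fell to 0 in DESeq2 (6 at an unadjusted p under 0.05), to 0 without TMM (4), to 0 with the stricter filter (3) and to 0 without the libraries in doubt (2). Over all genes, DESeq2 called 444 higher and 375 lower in 8-cell knockout embryos against 617 and 218 in edgeR.

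The labels give both genotypes the same replicate numbers, and the data gave no pairing. The median correlation of same-numbered libraries was 0.024 in oocytes, -0.044 in 2-cell, 0.026 in 4-cell and 0.017 in 8-cell embryos, and only 2, 0, 0 and 2 libraries correlated best with their own number. With the replicate number as a block, 2, 5, 4 and 0 members were called at the 4 stages (4 of the 8-cell members had an unadjusted p under 0.05), and 1 interaction from oocyte to 2-cell and 0 from 4-cell to 8-cell (3 at an unadjusted p under 0.05). Depth limits the low genes: 3 counts were 0.644 to 5.68 CPM in a library, above the group medians of Aldoc, Pdk2 and Pgls in many of them.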
